A study of Mus musculus with 12 samples.

Results

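The genes described here are 34 mouse genes of fatty acid oxidation and the citrate cycle, chosen by name along the route from fatty acid uptake to the last steps of the cycle. Of the 34, 33 had a probe set that the array annotation pairs with 1 gene symbol, and all 33 were among the 8101 genes tested of 12393 measured. Acsl1, which activates long-chain fatty acids, had no such probe set in the annotation used here. A gene with several probe sets was read from the one with the highest mean log2(signal + 16) over all 12 arrays, and a gene was tested when that mean was at or above the 40th percentile over probe sets.

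RNA came from the hearts of 12 C57Bl/6 mice, hybridised to 1 Affymetrix array each, with 3 mice in each of 4 groups. Wake MI mice had the left anterior descending artery tied between ZT13 and ZT15 (hours after lights on), and wake sham mice were operated on over the same hours without infarction. Sleep MI and sleep sham mice were operated on between ZT1 and ZT3. All hearts were collected 8 h later, which was ZT23 for wake and ZT11 for sleep mice, so the time of surgery and the time of collection cannot be told apart. MI samples were taken from infarcted myocardium, whereas the labels do not say which part of the sham hearts was sampled, nor the age or sex of the mice.

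The working heart draws much of its ATP from long-chain fatty acids. They are freed from lipoproteins at the capillary wall, taken up, bound to carrier proteins, activated to acyl-CoA and carried into mitochondria as carnitine esters. There beta-oxidation cuts them to acetyl-CoA in repeated rounds of dehydrogenation, hydration, dehydrogenation and thiolysis, and the citrate cycle oxidises the acetyl-CoA. Loss of blood flow stops this oxidation for want of oxygen, and lowered mRNA for its enzymes is a known feature of the failing and hypertrophied heart.

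The trimmed mean signal was about 150 on every array. Replicates of a group correlated at 0.974 to 0.988 over genes, and arrays of different groups at 0.949 to 0.989. All 12 cardiomyocyte markers passed the level filter, with a summed signal of 86362 to 102952 in wake MI hearts against 80148 to 89290 in wake sham hearts, and of 93824 to 104661 in sleep MI hearts against 76728 to 101568 in sleep sham hearts. The 3′ to 5′ signal ratio of the beta-actin control probe sets, a sign of RNA quality, averaged 2.60 ± 0.62 in wake MI hearts against 1.79 ± 0.02 in wake sham hearts, and 2.40 ± 0.45 in sleep MI hearts against 2.18 ± 0.28 (SD, n = 3 each) in sleep sham hearts. It was 3.31 in wake MI replicate 3, the highest of the 12. The wake groups did not overlap in this ratio (2.17 to 3.31 in MI, 1.77 to 1.81 in sham). Results adjusted for it therefore cannot cleanly separate the ratio from surgery. Sleep sham replicate 2 was the lowest array for 12 members and lay below the 12-array mean for 28 of the 33, and it had the lowest cardiomyocyte marker sum, 76728. Wake MI replicate 3 was the lowest array for 11 members and lay below that mean for 19. In whole tissue, fewer cells of a type and less RNA per cell cannot be told apart.

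Most of the oxidation genes differed little between infarcted and sham hearts at 8 h. In the wake groups 1 of the 33 members passed the test, Cd36, which was higher in MI, and none was lower. Among all genes tested, 7.79% were called higher and 10.7% lower in wake MI (limma, Benjamini-Hochberg adjusted p below 0.05). In the sleep groups 0 of 33 members passed limma's test, against 1.68% of all genes called higher and 0.975% lower. At an unadjusted p under 0.05 there were 8 members (24.2%) in the wake groups and 1 (3.03%) in the sleep groups, against 33.0% and 17.1% of all genes tested. Over both times together, 1 member was called higher (Cd36) and 1 lower (Mlycd), against 8.49% of all genes higher and 13.6% lower.

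The members' median log2 change was -0.05 in wake MI against wake sham, 0.01 in sleep MI against sleep sham and -0.02 over both times. The same medians over all genes tested were -0.06, -0.05 and -0.06, so the members' medians lay close to those of the array as a whole. The typical size of a change, as the median absolute log2 value, was 0.136 for the members in the wake comparison and 0.213 for all genes, and 0.0536 for the members in the sleep comparison and 0.145 for all genes. On the brightest probe sets, the precision was good enough to bound most of these values. The 95% interval of the change lay within 0.5 log2 units of 0, or 1.41-fold, for 27 of 33 members in the wake comparison. In the sleep comparison it did for 29 of 33, and of all genes 44.3% and 56.4% did so in these comparisons. These intervals leave out disagreement between a gene's probe sets, given below for Acaa2 and Fabp4, so they bound the probe set and not the gene. The members' within-group SD had a median of 0.119 log2 units, against 0.176 over all genes tested.

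**Figure D1:**
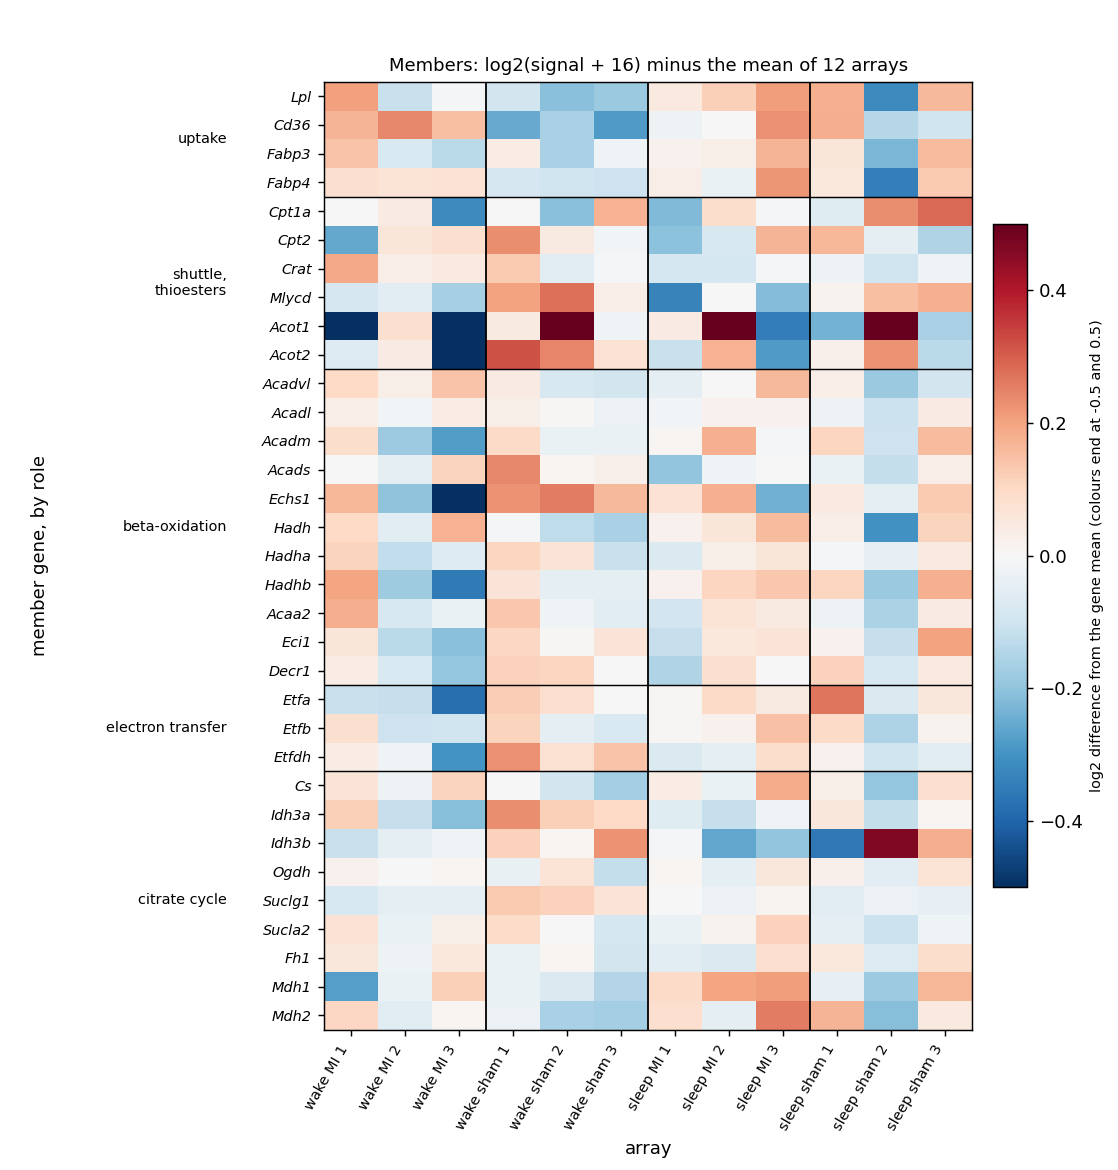
Each row is a member gene, ordered by role, and each column an array; colour gives log2(signal + 16) minus the gene's mean over the 12 arrays, with colours ending at -0.5 and 0.5. Cd36 is above its mean on the 3 wake MI arrays and below it on the 3 wake sham arrays, Acot1 and Acot2 vary widely within groups, and most other rows stay pale apart from a bluish column for sleep sham replicate 2.

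**Figure D2:**
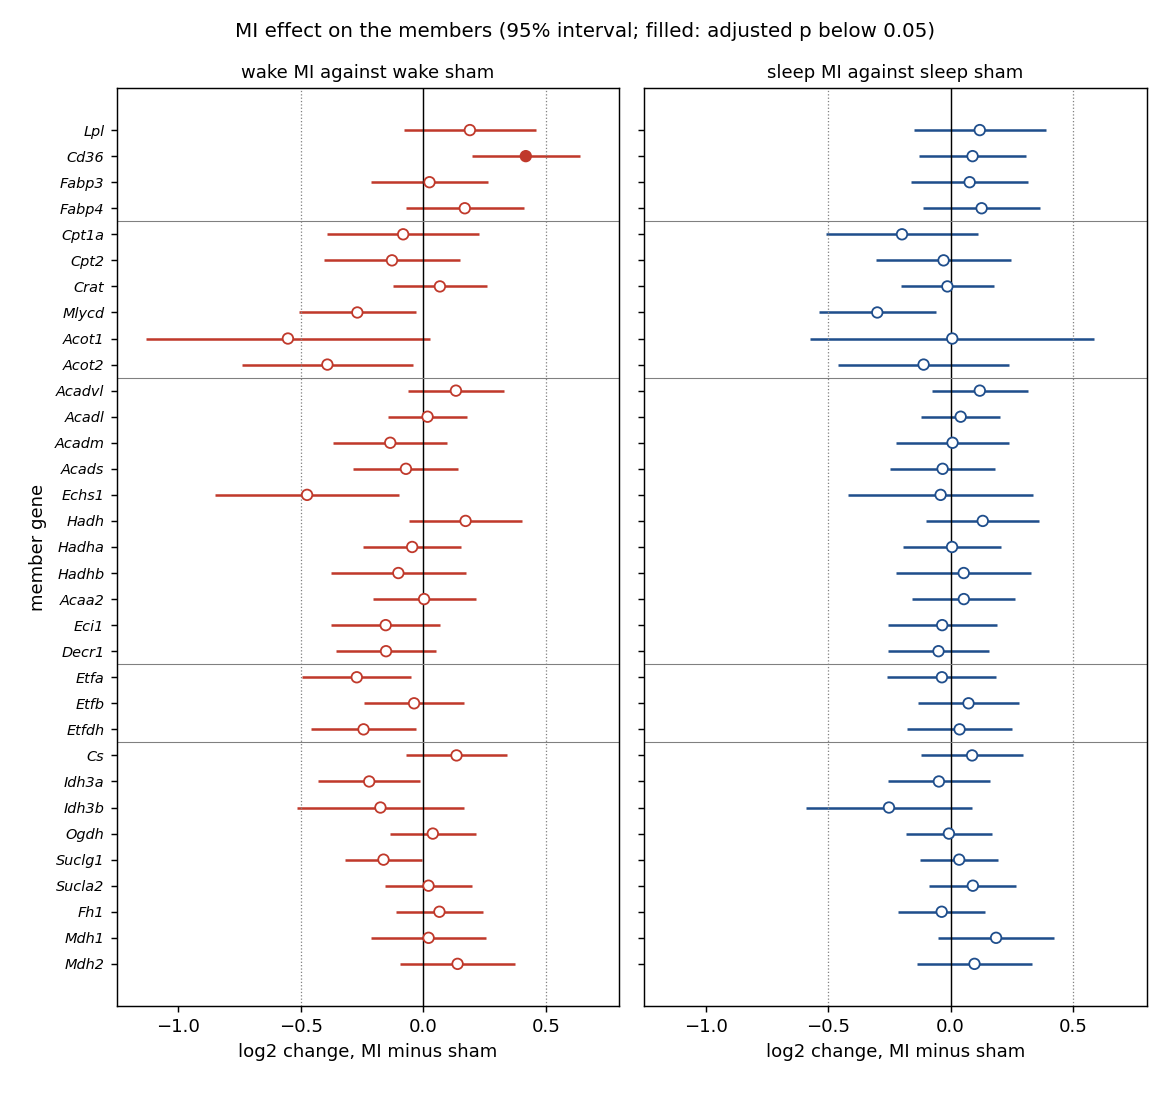
Points are log2 changes of each member, MI minus sham, in the wake groups (left) and the sleep groups (right), with 95% intervals; filled points have an adjusted p below 0.05 and dotted lines mark -0.5 and 0.5. Cd36 is the 1 filled point, in the wake panel, and most intervals in both panels cross 0 and stay between the dotted lines.

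On their brightest probe sets, all 4 genes of uptake and binding had log2 changes above 0 in both comparisons of MI with sham, but Cd36 was the one that passed the test. Of all 8101 genes tested, 3433 lay above 0 in the wake comparison and 3216 in the sleep comparison. Of the 12 cardiomyocyte markers, 12 and 10 did. Cd36 encodes the fatty acid translocase that carries long-chain fatty acids across the membranes of endothelial cells, muscle cells and adipocytes. Its signal was 4121, 4324 and 4061 in wake MI hearts, against 3074, 3269 and 3004 in wake sham hearts, and these groups did not overlap. It was 3598, 3661 and 4293 in sleep MI hearts, against 4151, 3310 and 3413 in sleep sham hearts, where the groups overlapped. The log2 change was 0.42 ± 0.10 (SE, adjusted p = 0.0134, 1.34-fold) in the wake groups and 0.09 ± 0.10 (adjusted p = 0.711) in the sleep groups. The difference between these effects was 0.33 log2 units, with a 95% interval of 0.02 to 0.64 and an adjusted p of 0.453, so it did not pass limma's test. The wake sham level was itself below the sleep sham level, by a log2 difference of -0.21 (adjusted p = 0.395).

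Over both times Cd36 was 1.19-fold higher in MI hearts (log2 0.25 ± 0.07, adjusted p = 0.0234). The wake call rests on 1 of 3 probe sets: the other 2 gave 0.23 (adjusted p = 0.197) and 0.17 (adjusted p = 0.270), both above 0 but not called. In the sleep groups 1 of these 2 went the other way, averaging 1208 in MI against 1302 in sham hearts. With this beta-actin ratio added to the model the wake change was 0.29 (adjusted p = 0.263), and without wake sham replicate 3 it was 0.39 (adjusted p = 0.0547). That array stood apart in the summed signal of 7 atrial markers. The sum was 14848, against 1060 to 1494 in wake MI hearts and 1784 and 2222 on the other wake sham arrays. Of the 7, 5 were tested, and 3 were called lower in wake MI. The summed signal of 8 neutrophil markers was 1011 to 1440 in wake MI hearts against 153 to 567 in wake sham hearts. Of the 8, 7 were tested, and 6 were called higher in wake MI. Capillary endothelial cells also express Cd36, and the summed signal of their 12 markers, all tested, was 5596 to 7054 in wake MI hearts against 4092 to 4462 in wake sham hearts, and 5397 to 5838 in sleep MI hearts against 4921 to 6443 in sleep sham hearts. Of these 12, 4 were called higher and 2 lower in wake MI. The summed signal of 10 monocyte and macrophage markers was lower in wake MI hearts, 2988 to 3390 against 3520 to 5390 in wake sham hearts. Of the 10, 8 were tested, and 1 was called higher and 2 lower in wake MI. The part of endothelial cells, atrial tissue, neutrophils, monocytes and macrophages, or RNA quality in the Cd36 result was not tested.

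The promoter window of Cd36 is shown because Cd36 was the member called higher, and that of Mlycd because it was the member called lower. Windows run from 250 bases before to 50 bases after the annotated start (RefSeq, GRCm38.p6), and capitals mark the 50 bases from the start on. The Cd36 window, the 1 the promoter table gives, lies inside the gene's annotated span rather than at its upstream end, at chr5:17835847-17836146 on the minus strand. It has 43% G and C, and holds a run of A shortly before the start. The Mlycd window lies at chr8:119394644-119394943 on the plus strand and has 68% G and C.
Cd36: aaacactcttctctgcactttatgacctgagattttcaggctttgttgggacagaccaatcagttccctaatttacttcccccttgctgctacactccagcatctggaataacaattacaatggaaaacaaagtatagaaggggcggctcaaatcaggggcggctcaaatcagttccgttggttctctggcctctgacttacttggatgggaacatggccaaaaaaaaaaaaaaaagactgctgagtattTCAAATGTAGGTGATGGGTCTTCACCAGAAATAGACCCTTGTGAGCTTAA
Mlycd: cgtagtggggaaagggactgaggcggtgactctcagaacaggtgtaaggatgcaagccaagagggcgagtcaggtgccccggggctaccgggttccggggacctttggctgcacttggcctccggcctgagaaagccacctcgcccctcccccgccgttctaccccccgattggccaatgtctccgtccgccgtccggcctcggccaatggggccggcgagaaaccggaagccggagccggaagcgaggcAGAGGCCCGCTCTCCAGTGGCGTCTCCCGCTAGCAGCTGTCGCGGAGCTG

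Both windows, and those of 28 matched members in all, were searched on both strands for short motifs of regulators of fat oxidation and of the clock. GGTCANAGG, the core of the repeat bound by PPAR and RXR receptors, was found in 1 of the members' 34 windows (Idh3b, starting 137 bases before the start on the opposite strand) and in 1.72% of all 32851 windows. TCAAGGTCA, the element of estrogen-related receptors, was in 0 of the 34 and in 0.423% of all windows. The E-box CACGTG was in 3 of the 34, all windows of Ogdh, 2 of which overlap and hold the same site, and in 7.15% of all windows, and the D-box TTATGTAA was in 0 of the 34 and in 0.938% of all. Neither the Cd36 nor the Mlycd window held any of these letters.

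Lpl, Fabp3 and Fabp4 complete the uptake group. Lpl, the lipase that frees fatty acids from lipoproteins at the capillary wall, averaged 9286 ± 1056 in wake MI hearts against 8107 ± 350 in wake sham hearts, and 9911 ± 559 in sleep MI hearts against 9228 ± 1695 in sleep sham hearts (SD, n = 3 each). Fabp3, the fatty acid binding protein of heart muscle, averaged 10570 ± 1107 against 10365 ± 729 in wake MI and wake sham, and 11286 ± 663 against 10750 ± 1464 in sleep MI and sleep sham. Neither gene's MI and sham arrays separated, and the lowest Lpl and Fabp3 signals were in sleep sham replicate 2.

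Fabp4, the binding protein of adipocytes and capillary endothelium, gave different answers from different probe sets. Its brightest probe set read 8454, 8396 and 8415 in wake MI hearts against 7546, 7472 and 7441 in wake sham hearts, a change of 0.17 log2 units (adjusted p = 0.314). A second, dimmer probe set read 72.4, 67.6 and 65.8 in wake MI hearts against 26.7, 24.1 and 21.1 in wake sham hearts, a change of 1.08 ± 0.18 (SE, adjusted p = 0.00146 over probe sets). Both separated the wake groups, but the sizes differ, and of these 2 the dimmer one was called. The remaining ones gave 0.76 (adjusted p = 0.0400) and 0.49 (adjusted p = 0.339). The dimmer probe set read 57.0, 51.8 and 44.4 in sleep MI hearts against 37.2, 27.6 and 62.4 in sleep sham hearts, which overlap (0.24, adjusted p = 0.567). Of 10 adipocyte markers, 7 had a probe set, 2 were tested and 0 were called. Their summed signal was 269 to 408 in wake MI hearts against 339 to 496 in wake sham hearts, and the defining marker Adipoq read at most 15.5 on any array. The endothelial marker sums given for Cd36 apply here too, and their part was not tested.

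Among the 6 tested genes of the carnitine shuttle and of acyl-CoA and malonyl-CoA turnover, 5 had log2 changes below 0 in wake MI and 5 in sleep MI. Of all 8101 genes tested, 4668 and 4885 lay below 0 in these comparisons. Among the 6, 1 passed the test over both times. That gene was Mlycd, malonyl-CoA decarboxylase, which removes the malonyl-CoA that inhibits carnitine palmitoyltransferase 1. It read 239, 245 and 225 in wake MI hearts against 294, 311 and 260 in wake sham hearts, and 198, 254 and 216 in sleep MI hearts against 257, 283 and 290 in sleep sham hearts. MI arrays lay below the sham arrays at both times without overlap, though the gap was narrow in the sleep groups. Over both times its change was -0.28 ± 0.08 log2 units (SE, 95% interval -0.45 to -0.12, adjusted p = 0.0205, 0.821-fold).

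Taken separately, neither time passed for Mlycd, with -0.27 (adjusted p = 0.108) in the wake groups and -0.30 (adjusted p = 0.189) in the sleep groups. The difference between these was 0.03 log2 units with a 95% interval of -0.31 to 0.37. After adjustment for the beta-actin ratio the change over both times was -0.21 (adjusted p = 0.210), and without sleep MI replicate 1 it was -0.25 (adjusted p = 0.0556).

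Cpt1a, the liver type of the outer membrane carnitine palmitoyltransferase, averaged 122 ± 17.9 in wake MI against 130 ± 19.3 in wake sham hearts, and 126 ± 15.2 in sleep MI against 147 ± 20.2 in sleep sham hearts (SD, n = 3 each). Cpt2, which turns acylcarnitine back to acyl-CoA inside the mitochondrion, averaged 1464 ± 185 in wake MI against 1597 ± 148 in wake sham hearts. Crat, carnitine acetyltransferase, averaged 1064 ± 66.1 in wake MI against 1015 ± 69.1 in wake sham hearts. None of these was called, and each one's MI and sham arrays overlapped at both times. The related gene Cpt1b was not among the genes tested, and the Cpt1a values do not stand for it.

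The thioesterases Acot1 (cytosolic) and Acot2 (mitochondrial) split acyl-CoA to free fatty acid, and they are near-identical copies whose signals may not be separable by these probes. Acot1 read 59.5, 100.6 and 57.0 in wake MI hearts against 97.6, 148 and 92.5 in wake sham hearts (log2 -0.55, adjusted p = 0.170). Acot2 read 97.9, 106 and 67.4 in wake MI hearts against 132, 125 and 109 in wake sham hearts (-0.39, adjusted p = 0.109). The Acot2 arrays separated and those of Acot1 did not, and neither passed. The Acot1 estimate in the sleep groups was 0.01 with a 95% interval of -0.57 to 0.59, so these arrays could not resolve a moderate change in it. Its within-group SD of 0.410 log2 units was the widest of the 33 members. Part of that spread followed the replicate number, since replicate 2 was the highest Acot1 array in every group. With the replicate number added to the model, Acot1 and Acot2 were both called lower in wake MI.

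None of the 11 beta-oxidation genes was called in any comparison on its brightest probe set, though a further probe set of Acaa2, given below, was called in the wake groups. The acyl-CoA dehydrogenases, which take the first step for chains of falling length, were Acadvl (log2 0.13 in wake and 0.12 in sleep), Acadl (0.02 and 0.04), Acadm (-0.13 and 0.01) and Acads (-0.07 and -0.03). Acadl was the steadiest of them: it averaged 5212 ± 99.1 in wake MI against 5149 ± 104 in wake sham hearts, and 5173 ± 69.9 in sleep MI against 5032 ± 260 in sleep sham hearts (SD, n = 3 each). For the 4 dehydrogenases the adjusted p-values were 0.332 or higher in the wake groups and 0.550 or higher in the sleep groups.

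Echs1, the short-chain enoyl-CoA hydratase of the second step, had the largest log2 change of the 11 in the wake groups. It read 2869, 2226 and 1519 in wake MI hearts against 2992, 3058 and 2862 in wake sham hearts, and 2692, 2894 and 2166 in sleep MI hearts against 2646, 2474 and 2807 in sleep sham hearts. The wake MI arrays were spread over a wide range, the lowest being replicate 3, whose beta-actin ratio was the highest, and MI and sham arrays overlapped at both times. Its wake change was -0.47 ± 0.18 (SE, adjusted p = 0.0753) and its sleep change -0.04 (adjusted p = 0.937). Adjusted for that ratio the change over both times was 0.03, against -0.26 without it. The ratio differed between wake MI and wake sham hearts without overlap, so this adjustment cannot cleanly separate it from surgery.

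The mitochondrial trifunctional protein, which carries out the later steps for long chains, is encoded by Hadha and Hadhb. Hadha averaged 2385 ± 206 in wake MI against 2461 ± 194 in wake sham hearts, and 2430 ± 117 in sleep MI against 2419 ± 77.9 in sleep sham hearts. Hadhb averaged 5380 ± 1078 in wake MI against 5704 ± 256 in wake sham hearts, and 6103 ± 246 in sleep MI against 5911 ± 761 in sleep sham hearts (SD, n = 3 each). Hadha and Hadhb had log2 changes of -0.05 and -0.10 in the wake groups and of 0.01 and 0.05 in the sleep groups, all uncalled. The other Hadhb probe set went the opposite way in the wake groups: it read 4316, 4427 and 5135 in wake MI hearts against 3314, 4055 and 3740 in wake sham hearts, without overlap (log2 0.32, adjusted p = 0.259). They are divergent neighbours on chromosome 5, with 272 bases between their starts, so that their promoter windows share 228 bases. The Hadha window (chr5:30154931-30155230, minus strand, 58.7% G and C) is shown because it holds these 228 bases, and capitals mark the 50 bases from the Hadha start on, which lie outside them.
Hadha: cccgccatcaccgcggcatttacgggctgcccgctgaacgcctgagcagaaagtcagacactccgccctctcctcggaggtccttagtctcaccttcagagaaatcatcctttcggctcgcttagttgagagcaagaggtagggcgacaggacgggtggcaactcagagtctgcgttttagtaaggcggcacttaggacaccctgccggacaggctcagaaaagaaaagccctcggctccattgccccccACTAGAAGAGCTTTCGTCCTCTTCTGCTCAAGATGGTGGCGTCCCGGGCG

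The other beta-oxidation genes stayed within 0.2 log2 units of 0. Hadh, the dehydrogenase of the third step for shorter chains, changed by 0.17 in the wake groups and 0.13 in the sleep groups. Eci1 and Decr1, which prepare unsaturated fatty acids for the spiral, changed by -0.15 each in the wake groups and by -0.03 and -0.05 in the sleep groups. Acaa2, the thiolase of the last step, changed by 0.00 in the wake groups on its brightest probe set, but a second probe set read 1900, 1515 and 776 in wake MI against 2485, 2245 and 2063 in wake sham hearts (log2 -0.78, adjusted p = 0.0406). Its wake MI value was again lowest in replicate 3. Counting such further probe sets, 3 of 23 were called in the wake groups, 1 of 23 over both times and 0 of 23 in the sleep groups. Of all genes tested, on brightest probe sets, 7.79% were called higher and 10.7% lower in the wake groups. The shares were 8.49% and 13.6% over both times, and 1.68% and 0.975% in the sleep groups. The share over all probe sets is not given here. In the wake groups 9 of the 23, from 8 members, had the opposite sign to the brightest one.

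Electrons from the acyl-CoA dehydrogenases pass through the flavoprotein of Etfa and Etfb to the dehydrogenase Etfdh and on to ubiquinone. Etfa read 3187, 3178 and 2648 in wake MI hearts against 3757, 3654 and 3444 in wake sham hearts (-0.27, adjusted p = 0.0831). Etfdh read 2760, 2644 and 2181 in wake MI hearts against 3150, 2834 and 2968 in wake sham hearts (-0.24, adjusted p = 0.104). Both had wake MI arrays below all wake sham arrays, and neither passed the test. The sleep estimates were -0.04 for Etfa and 0.04 for Etfdh. Etfb changed by -0.04 in the wake groups and 0.07 in the sleep groups.

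The 9 citrate cycle genes were called in no comparison, with 6 above and 3 below 0 in the wake groups, and 5 above and 4 below in the sleep groups. Cs, citrate synthase, which joins acetyl-CoA to oxaloacetate, averaged 5623 ± 267 in wake MI against 5119 ± 308 in wake sham hearts, and 5676 ± 447 in sleep MI against 5347 ± 536 in sleep sham hearts (SD, n = 3 each). Its probe sets disagreed in direction, since another gave -0.25 (adjusted p = 0.0942) in the wake groups where the brightest gave 0.14. Idh3a and Idh3b encode subunits of the NAD-dependent isocitrate dehydrogenase, and their wake changes were -0.22 (adjusted p = 0.130) and -0.17 (adjusted p = 0.475). Idh3b read 2105, 1768 and 1845 in sleep MI hearts against 1649, 2930 and 2406 in sleep sham hearts, a wide spread among the sham arrays.

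Suclg1, the alpha subunit of succinyl-CoA synthetase, was the steadiest of all 8101 genes within groups, with an SD of 0.0235 log2 units. It read 2468, 2524 and 2525 in wake MI hearts against 2858, 2831 and 2729 in wake sham hearts, and 2608, 2557 and 2636 in sleep MI hearts against 2518, 2560 and 2534 in sleep sham hearts. The wake groups did not overlap, yet limma, which draws so small an SD toward the spread of genes of like signal, gave a change of -0.16 ± 0.07 (SE, adjusted p = 0.143). The sleep groups overlapped (0.04, adjusted p = 0.858), and the difference of the effects was -0.20 (adjusted p = 0.530).

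None of the later enzymes was called. Ogdh, of the 2-oxoglutarate dehydrogenase complex, averaged 2614 ± 18.0 in wake MI against 2547 ± 168 in wake sham hearts (SD, n = 3 each). Sucla2, the ATP-type beta subunit of succinyl-CoA synthetase, and Fh1, fumarase, changed by 0.02 and 0.07 in the wake groups and by 0.09 and -0.04 in the sleep groups. Of the malate dehydrogenases, mitochondrial Mdh2 changed by 0.14 in wake and 0.10 in sleep. Cytosolic Mdh1 changed by 0.02 in wake and 0.19 in sleep, where it read 7495, 8040 and 8119 in MI against 6826, 6187 and 7868 in sham hearts. Those Mdh1 arrays overlapped (adjusted p = 0.422).

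**Figure D3:**
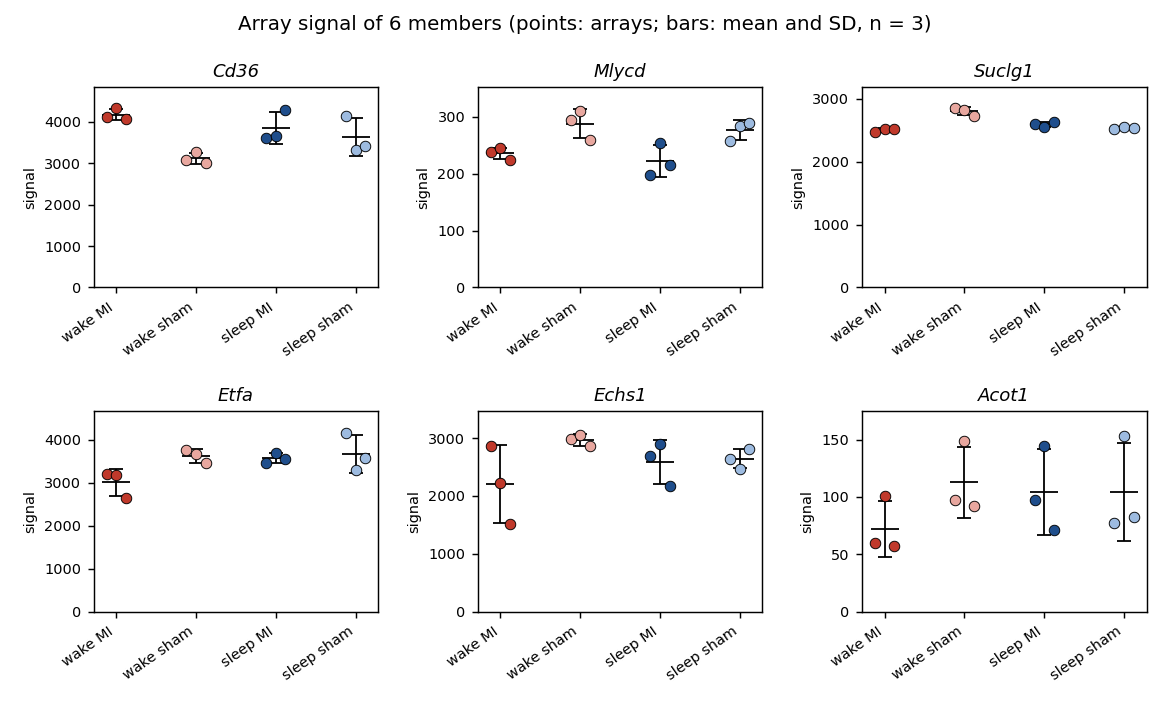
Array signal (linear, from 0) of 6 members in wake MI, wake sham, sleep MI and sleep sham hearts; points are arrays, and bars the mean and SD of 3. Cd36 separates wake MI from wake sham, Mlycd lies lower in MI at both times, Suclg1 is tight in every group, and Echs1 and Acot1 are widely spread.

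Counted without a model, 2 members (Cd36 and Fabp4) had their 3 wake MI arrays above their 3 wake sham arrays, and 6 (Acot2, Etfa, Etfdh, Idh3b, Suclg1 and Mlycd) had them below. Of all genes tested, 13.6% lay above and 21.5% below in this way. In the sleep groups the members' count was 0 above and 1 below (Mlycd), against 8.2% of all genes above and 15.3% below. A separation of 3 arrays from 3 was thus common on these arrays, and the members' counts stand near or below that background.

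Time of day was compared first in sham hearts. By limma's test 0 of 33 members were called between wake sham and sleep sham, against 0.42% of all genes called higher and 1.1% lower. At an unadjusted p under 0.05 there were 0 members, against 13.4% of all genes. The members' changes, wake minus sleep, ranged from -0.21 (Cd36) to 0.20 (Etfdh), with a median of 0.02 against 0.02 over all genes, and 30 of 33 intervals lay within 0.5 log2 units of 0. Echs1, Etfdh, Idh3a and Suclg1 had all wake sham arrays above the sleep sham arrays and Cd36 had them below, as 11.9% and 8.15% of all genes did. So the oxidation genes showed no call for time of day at these hours, though the arrays of a few separated.

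Between wake MI and sleep MI hearts, again 0 of 33 members were called, against 0.037% of all genes called higher and 0.037% lower. At an unadjusted p under 0.05 there was 1 member (Etfa, -0.25, adjusted p = 0.692), or 3.03%, against 6.67% of all genes. Crat lay above and Etfa and Suclg1 below without overlap, where 6.47% and 4.41% of all genes did. The difference of the MI effect, wake minus sleep, was called for 0 of 33 members, and among all genes 0% were called higher and 0% lower. At an unadjusted p under 0.05 there was 1 member (Cd36), or 3.03%, against 10.5% of all genes. Its estimates ranged from -0.56 (Acot1) to 0.33 (Cd36), and 24 of 33 intervals lay within 0.5 log2 units of 0. These comparisons share groups, so their values are not independent of those given for MI against sham.

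Related genes outside the 34, chosen by role, included several that passed the test. Of 22 other genes of uptake, storage and activation tested, 5 rose and 0 fell in wake MI, 0 were called in sleep MI, and 5 rose and 0 fell over both times. Of all genes tested, 7.79% were called higher and 10.7% lower in wake MI. The shares were 1.68% and 0.975% in sleep MI, and 8.49% and 13.6% over both times. Plin4, a coat protein of lipid droplets, read 1674, 1325 and 1032 in wake MI hearts against 621, 733 and 508 in wake sham hearts (1.08, adjusted p = 0.00104), without overlap. Its sleep groups overlapped (-0.03, adjusted p = 0.947), and the difference of the effects was 1.12 with an adjusted p of 0.132. Angptl4, an inhibitor of Lpl, rose over both times (1.01, adjusted p = 0.00285). Dgat1 and Dgat2, which make triglyceride, rose in wake MI by 0.42 (adjusted p = 0.0118) and 0.34 (adjusted p = 0.0346), as did the thioesterase Acot9 by 0.36 (adjusted p = 0.0160). Over both times Plin4, Dgat1, Acot9 and the acyl-CoA synthetase Acsl4 rose beside Angptl4, by 0.52, 0.27, 0.30 and 0.51.

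Of 19 other genes of the carnitine shuttle and beta-oxidation tested, 0 rose and 2 fell in wake MI, against 7.79% and 10.7% of all genes. The 2 were Acat1, a mitochondrial thiolase also used for ketone bodies (-0.31, adjusted p = 0.0260), and Hsd17b10, a mitochondrial hydroxyacyl-CoA dehydrogenase (-0.32, adjusted p = 0.0472). Hsd17b10 was the 1 called over both times (-0.27, adjusted p = 0.020), where 13.6% of all genes were called lower, and 0 were called in sleep MI. Of 19 other genes of the citrate cycle and pyruvate entry, Idh1, the cytosolic NADP-dependent isocitrate dehydrogenase, fell in wake MI (-0.47, adjusted p = 0.0303) and over both times (-0.50, adjusted p = 0.00322). Its mitochondrial relative Idh2 (0.38, adjusted p = 0.0391) and the aspartate aminotransferase Got2 (0.33, adjusted p = 0.0314) rose in wake MI, and 0 of the 19 were called in sleep MI. The mean of its probe sets put Got2 at -0.10, uncalled, so its direction depends on the probe set. In both lists of 19 the wake counts stand near the shares over all genes.

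Several regulators of these pathways passed the test. Ppargc1a, the coactivator PGC-1 alpha, read 1542, 983 and 1241 in wake MI hearts against 532, 622 and 464 in wake sham hearts, and 1143, 956 and 1458 in sleep MI hearts against 540, 567 and 551 in sleep sham hearts. The groups were far apart at both times, with changes of 1.18 (adjusted p = 0.000570) and 1.06 (adjusted p = 0.00513), and their difference was 0.12 (95% interval -0.39 to 0.64, adjusted p = 0.893). Its relative Ppargc1b fell in wake MI (-0.88, adjusted p = 0.0154), with signals of 133, 157 and 256 in wake MI hearts against 473, 257 and 309 in wake sham hearts.

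Pdk4, the kinase that switches off pyruvate dehydrogenase and so favours fat as a fuel, read 7739, 7233 and 5329 in wake MI hearts against 2405, 3618 and 2632 in wake sham hearts (1.23, adjusted p = 0.000658). In the sleep groups it read 5666, 6504 and 6799 in MI against 3706, 5453 and 5265 in sham hearts (0.41, adjusted p = 0.267). Both comparisons had all MI arrays above the sham arrays, and the difference of the effects, 0.82, did not pass (adjusted p = 0.288). The nuclear receptor Pparg rose in wake MI (0.77, adjusted p = 0.0111), with signals of 55.2 to 107 in wake MI hearts against 35.8 to 50.1 in wake sham hearts.

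Of 9 regulators tested, 3 rose and 1 fell in wake MI, against 7.79% and 10.7% of all genes. In sleep MI 1 rose (Ppargc1a) and 0 fell, against 1.68% and 0.975%. Over both times 3 rose and 1 fell, against 8.49% and 13.6%. Ppara, the nuclear receptor for fat oxidation in heart muscle, was not called (-0.12 in wake, adjusted p = 0.700, and 0.14 in sleep, adjusted p = 0.757). Neither was Esrra (-0.22 and -0.04) nor the uncoupling protein Ucp3 (0.65 and -0.15). None of the 9 was called between wake sham and sleep sham hearts.

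**Figure D4:**
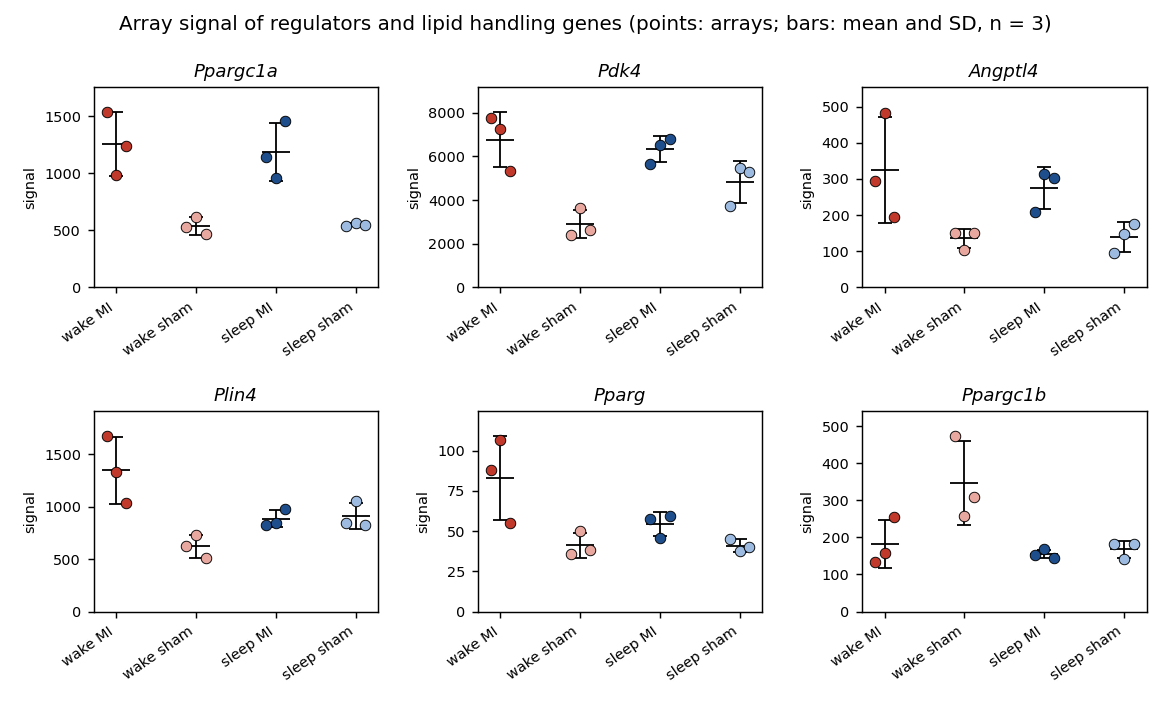
Array signal (linear, from 0) of Ppargc1a, Pdk4, Angptl4, Plin4, Pparg and Ppargc1b in wake MI, wake sham, sleep MI and sleep sham hearts; points are arrays, and bars the mean and SD of 3. Ppargc1a and Pdk4 lie higher in MI at both times, Plin4 separates the wake groups and not the sleep groups, and Ppargc1b is highest in wake sham hearts.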

How the data were processed

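RNA of 12 mouse hearts was measured on 1 array each. The deposited values are signal intensities on a linear scale, made by the authors with MAS5, per the submitters' processing notes. Its settings were not among the sources used here. The 2% trimmed mean was 150 on every array. Of 22690 probe sets, 64 are controls, 20380 have 1 symbol in the platform annotation, 691 several and 1555 none, and only those with 1 symbol were used.

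From these, log2(signal + 16) was computed and the brightest probe set of each gene kept. Genes with a mean at or above the 40th percentile (a signal of 16.8) were tested. limma 3.58.1 in R 4.3.3 fitted 4 group means to all 12 arrays, with an intensity trend, 8 residual degrees of freedom and 14.0 in all after moderation, and gave 6 two-sided comparisons. P-values were adjusted by Benjamini-Hochberg over 8101 genes, with calls at an adjusted p below 0.05. P-values printed are from this fit unless a changed setting is named. Where a covariate, a left-out array or the mean of probe sets is named, the p-value is from the fit so changed. Those of a probe set other than the brightest are from the same fit over probe sets. The procedure was tested on simulated data. Python 3.11.15 and matplotlib 3.10.9 drew the figures. Nothing says how mice were housed or batched, so p-values measure the spread between these mice. With 3 arrays a group, an exact permutation test could not go below 0.1. The number of arrays limits precision.

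The members and gene lists were chosen with earlier results of these data known. Each member is named. From each other list, up to 3 genes called higher and up to 3 lower with the smallest adjusted p are named, and Pdk4, Ppargc1a, Ppara, Pparg, Esrra and Ucp3 in any case. Others named were chosen after their values were seen. Alternatives tried were other pseudocounts, filters, scalings, probe set rules, variance settings, array weights, the compared groups alone, a beta-actin covariate, a replicate block and each array left out. Over all genes, same-numbered arrays deviated together about as much as others (18 pairs, correlations -0.18 to 0.25, against 36 pairs, -0.20 to 0.28). Whether single genes share a pattern by number was not tested, though replicate 2 was the highest Acot1 array in every group.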

Additional observations from a re-analysis of the deposited data

How the results depend on the processing

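Of 198 pairs of a member and a comparison, 184 were called in no setting, 3 were called as reported and 11 were called under some alternative only, over 14 alternatives and 12 arrays left out in turn. Over both times, where 2 members were called, 0 were called with a beta-actin ratio covariate and 0 at an adjusted p below 0.01, 3 with a replicate block (Acot1 added), and the mean of probe sets called Fabp4 in place of Cd36. Leaving out 1 array gave 1 to 3, the 3 being without wake MI replicate 1 (Echs1 added) and without sleep sham replicate 1 (Idh3b added). Leaving out any of wake MI replicate 2, wake sham replicates 1 and 3, sleep MI replicate 3 and sleep sham replicate 3 lost Cd36 (adjusted p 0.0515 to 0.0592), and with the mean of its probe sets (0.14, adjusted p = 0.126), and Mlycd without sleep MI replicate 1. In the wake groups, where 1 was called, 4 were called after quantile normalization (Cd36, Etfa, Etfdh, Idh3a), 2 with the mean of probe sets (Cd36, Fabp4), 2 with array weights (Cd36, Echs1), 3 with a replicate block (Cd36, Acot1, Acot2), and 0 with the covariate and at 0.01. Leaving out 1 array gave 0 (without wake sham replicate 3) to 3 (without wake MI replicate 1, with Echs1 and Idh3a added). The sleep, time of day and difference comparisons gave 0 members in every setting. Over both times the covariate turned the sign of Acot1 (log2 0.052) and of Echs1 (log2 0.031). The cause of these changes was not tested. Over all genes, 1792 were called over both times, against 672 with the covariate and 779 at 0.01. Against the wake groups' 1496, the covariate gave 274, the 0.01 threshold 564, and leaving out wake sham replicate 1 or 3 gave 863 or 845. The sleep groups' 215 stood against 416 with array weights, 140 with no filter, 51 at 0.01 and as few as 62 without sleep MI replicate 1. The sham groups' 123 stood against 371 with array weights, 33 at 0.01 and 30 to 226 with 1 array left out. The MI groups' 6 and the difference's 0 stood against 0 to 3 in 12 settings and up to 39 with array weights. Of the other genes named, wake calls were lost in 3 to 19 settings for Hsd17b10, Dgat2, Idh2, Got2, Acat1, Idh1, Acot9, Ppargc1b and Angptl4. Over both times those of Ppargc1b were lost in 12 and of Hsd17b10 in 4, and those of Ppargc1a, Pdk4, Pparg, Plin4, Angptl4 and Idh1 in none. The mean of probe sets turned the sign of Got2 in the wake groups (-0.10).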
